A study of Homo sapiens with 2 samples.

Results

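Integrins are cell surface receptors made of 1 alpha and 1 beta subunit, and the 8 beta subunit genes ITGB1 to ITGB8 are described here in ACHN cells with and without depletion of Kindlin-2. The 8 genes were chosen by name, as the transcript clusters (the array's unit for a gene) whose only gene symbol was ITGB1 to ITGB8. Each had exactly 1 such cluster, so 8 of the 33297 clusters on the array and 8 of the 18417 genes with a cluster of their own are covered. The study compared ACHN cells, an immortal line from a human renal carcinoma (clear cell, by its label), transfected with an shRNA against Kindlin-2, with the same line transfected with a control shRNA. Both cultures grew in minimum essential medium with 10% FBS and G418 at 400 µg/ml, a drug that kills cells without a resistance gene. The labels do not state the number of hairpins or whether the cells were a pool or a clone. Each group held 1 Affymetrix Human Gene 1.0 ST array (n = 1), so no difference below has a replicate check and none has a p-value. All differences are Kindlin-2 shRNA minus control shRNA on the log2 scale and describe these 2 arrays.

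Beta subunits carry much of an integrin's signalling through their short tails inside the cell. Talins and kindlins bind conserved tyrosine motifs in most of these tails, which switches the receptor to its high-affinity state and links it to actin. The tail of beta-4 is long and instead joins intermediate filaments through plectin, and the tail of beta-8 lacks the usual motifs. In tubule epithelium, beta-1 receptors hold cells on the basement membrane, whereas beta-6 and beta-8 are known as activators of latent TGF-beta. FERMT2, the gene of Kindlin-2, had a log2 value of 8.26 on the Kindlin-2 shRNA array and 9.37 on the control array, a difference of -1.11 in the direction its label gives.

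The 8 beta subunits went in opposite directions. ITGB3 was 3.55-fold higher in Kindlin-2-depleted cells, ITGB4 was 3.25-fold lower and ITGB8 was 2.01-fold lower. ITGB6 was lower by less, ITGB1 and ITGB5 were higher by less, and ITGB2 and ITGB7 lay near 0. In all, 4 of the 8 members were above 0 and 4 below, but ITGB7 moved below 0, leaving 3 above, when the arrays were normalised again or centred on their medians. Of the 8, 7 passed a filter on dim genes, which asked that the higher of a gene's 2 values reach 6.52, the middle of all deposited values, and ITGB7 fell short of it. Among the 7, 1 was at least 2-fold higher, beside 1.41% of the 11822 genes kept, and 2 were at least 2-fold lower, beside 1.26% of the genes kept. At 1.5-fold, 1 was higher and 3 were lower, beside 5.1% and 5.23% of the genes kept. At 3-fold ITGB3 was the 1 higher, beside 0.338%, and ITGB4 the 1 lower, beside 0.372%. Their median difference was -0.14, beside -0.02 over all genes kept. That median lies between members far apart, whose differences spanned 3.53 log2 units.

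**Figure D1:**
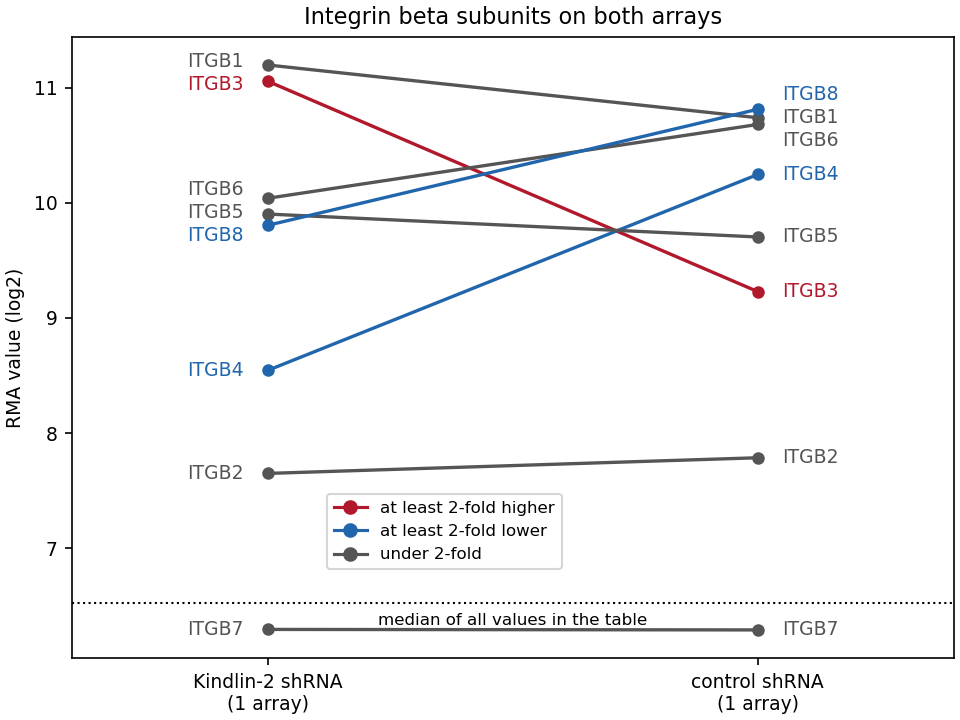
RMA log2 values of the 8 integrin beta subunit genes on the Kindlin-2 shRNA array (left) and the control shRNA array (right), 1 array each, with a line per gene and the median of all values as a dotted line. ITGB3 stands at 11.06 in Kindlin-2-depleted cells and 9.23 in control cells, the lines of ITGB4 and ITGB8 slope the other way, and heights of different genes cannot be set against each other because probes differ in brightness.

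Beta-3 and beta-5 bind vitronectin and other proteins with an RGD motif, in both cases together with alpha-v. ITGB3 (cluster 8007931, chromosome 17), also the beta chain of the platelet fibrinogen receptor, had a log2 value of 11.06 in Kindlin-2-depleted cells and 9.23 in control cells. It was thus far higher in the depleted cells, with a difference of 1.83, and 25 of the 11822 genes kept had a larger positive one. The SD of the difference over genes of like brightness was 0.35, a figure that holds both array noise and real differences. ITGB5 (cluster 8090162, chromosome 3), a vitronectin receptor chain that is common in epithelial cells, had a log2 value of 9.90 in depleted cells and 9.70 in control cells. Its difference of 0.20 was smaller than the SD of 0.39 among genes of like brightness. The differences of ITGB3 and ITGB5 were 1.63 log2 units apart.

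Beta-4 pairs with alpha-6 alone and anchors epithelial cells to laminin-332 in hemidesmosomes. ITGB4 (cluster 8009951, chromosome 17) had a log2 value of 8.55 in Kindlin-2-depleted cells and 10.25 in control cells. Its difference was -1.70, which left 30.8% of the control level, and 34 of the genes kept had a more negative one. ITGA6, the gene of its only partner, went the other way, with 9.29 in depleted cells and 7.995 in control cells, a difference of 1.29. The differences of ITGA6 and ITGB4 were thus 2.99 log2 units apart. Of 10 listed hemidesmosome partners of beta-4, which include plectin, laminin-332 chains and basal keratins, 7 had a cluster of their own and 6 passed the filter. ITGA6 was the only one of the 6 at least 1.5-fold different, and the other 5 lay between -0.27 and 0.22. The list's median was -0.0024. Of 3 squamous keratinocyte markers with a cluster of their own, whose cells are rich in hemidesmosomes, 1 passed the filter. That was KRT14, at 7.17 in depleted cells and 6.95 in control cells, whereas its partner keratin KRT5 was at 5.73 in depleted cells and 5.64 in control cells. The linear values of the 3 summed to 233 in depleted cells and 211 in control cells.

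Beta-6 and beta-8 pair with alpha-v and release active TGF-beta from its latent complex. ITGB8 (cluster 8131666, chromosome 7) had a log2 value of 9.81 in Kindlin-2-depleted cells and 10.81 in control cells, a difference of -1.01, and 146 of the genes kept had a more negative one. It lay just past 2-fold, and chromosome 7 as a whole was lower, with a median difference of -0.22 over 551 genes. With that median subtracted ITGB8 differed by -0.79, and with the median of its 50 nearest genes by -0.82, so it no longer reached 2-fold. ITGB6 (cluster 8056184, chromosome 2), a subunit restricted to epithelia, had a log2 value of 10.04 in depleted cells and 10.68 in control cells. At -0.64 it was 1.56-fold lower, and 4.07% of the genes kept had a more negative difference. The median of its 50 nearest genes was 0.05, and with it subtracted ITGB6 differed by -0.69.

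Beta-1 is the subunit with the most partners, 12 of the 24 known human integrins, among them the collagen, laminin and fibronectin receptors. ITGB1 (cluster 7932966, chromosome 10) had a log2 value of 11.20 in Kindlin-2-depleted cells and 10.74 in control cells. It was 1.37-fold higher in the depleted cells, and 7.88% of the genes kept had a larger positive difference than its 0.46. The SD over genes of like brightness was 0.35.

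Beta-2 and beta-7 are the subunits of white blood cells. ITGB2 (cluster 8070826, chromosome 21), the common chain of the leukocyte integrins, had a log2 value of 7.65 in Kindlin-2-depleted cells and 7.79 in control cells, a difference of -0.14. ITGB7 (cluster 7963614, chromosome 12), which guides lymphocytes to the gut, had 6.30 in depleted cells and 6.29 in control cells, and without detection calls it cannot be said whether the gene was silent. No alpha partner of ITGB2 passed the filter, and of the alpha partners of ITGB7 ITGA4 alone did. The leukocyte marker list held 9 genes with a cluster of their own, of which 2 passed the filter, and its linear values summed to 481 in depleted cells and 495 in control cells. PTPRC, the pan-leukocyte surface marker CD45, was at 3.54 in depleted cells and 3.53 in control cells, near the low end of a table that starts at 2.13. None of the 9 markers differed by as much as 0.3 on the log2 scale.

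**Figure D2:**
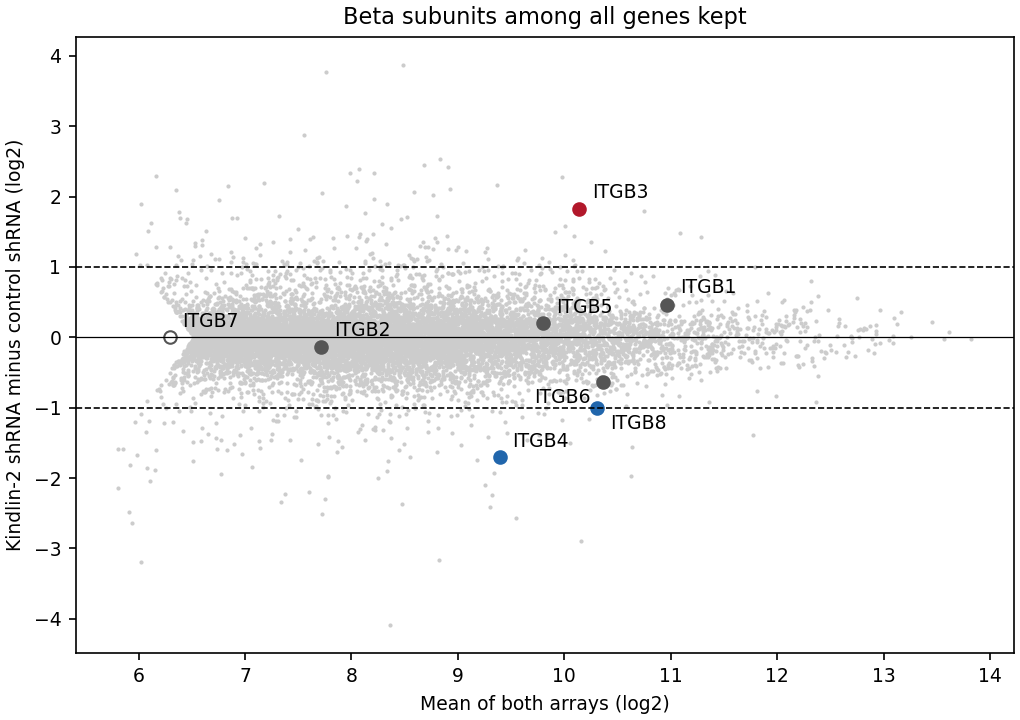
Difference between Kindlin-2 shRNA and control shRNA (log2, vertical) against the mean of both arrays (log2, horizontal) for the 11822 genes kept (grey points), with the 8 beta subunits as large points and 2-fold as dashed lines. ITGB3 at 1.83 and ITGB4 at -1.70 lie well outside the grey band, ITGB8 at -1.01 lies on the dashed line, and ITGB7, drawn open, was too dim to pass the filter.

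The beta subunits that share alpha-v differed among themselves. ITGAV had a log2 value of 11.05 in Kindlin-2-depleted cells and 10.64 in control cells, a difference of 0.41. Of its 5 beta partners, ITGB1, ITGB3 and ITGB5 were above 0 and ITGB6 and ITGB8 below. The differences of ITGB3 and ITGB8 were 2.83 log2 units apart and those of ITGB3 and ITGB6 2.47.

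Over all 24 known pairs, both genes passed the filter in 13. In 9 of these both genes were above 0 and in 3 the beta subunit was below 0 and its alpha partner above. Those 3 were ITGB4 with ITGA6, and ITGB6 and ITGB8 with ITGAV. Pairs share genes, so they are not separate observations. In the remaining pair the partner of ITGB1 was the muscle laminin receptor chain ITGA7, whose value was exactly the same on both arrays, as it was for 475 of all clusters.

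Alpha subunits that passed the filter were higher in Kindlin-2-depleted cells, apart from ITGA7. Of 17 with a cluster of their own, 8 passed, 7 of them were above 0 and none was below, where 46.4% of all genes kept were above 0. One of the 7, ITGA11, passed through the Kindlin-2 shRNA array alone, so it could be counted only as above 0, and without it 6 of 7 were above 0. Of the 8, 3 were at least 2-fold higher, beside 1.41% of the genes kept, and their median difference was 0.57. ITGA6 led them at 2.45-fold higher, followed by ITGA4, a fibronectin and VCAM1 receptor chain, at 2.04-fold and the laminin receptor chain ITGA3 at 2.003-fold. ITGA3 lay on the threshold, and 2 of the 8 remained past it when the arrays were normalised again or centred, with ITGA3 at 0.94 to 0.99 and ITGA7 just below 0. Of the other partners of ITGB1, ITGA11 differed by 0.63, the fibronectin receptor chain ITGA5 by 0.52 and the collagen receptor chain ITGA2 by 0.16. ITGA1 shares its cluster with another gene and was not used here. The platelet chain ITGA2B, the other partner of ITGB3, stayed below the filter at 6.11 in depleted cells and 6.01 in control cells. Of the 5 platelet markers, ITGA2B among them, GP9 alone passed, at 6.55 in depleted cells and 6.61 in control cells, and their linear values summed to 269.7 in depleted cells and 260.4 in control cells.

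**Figure D3:**
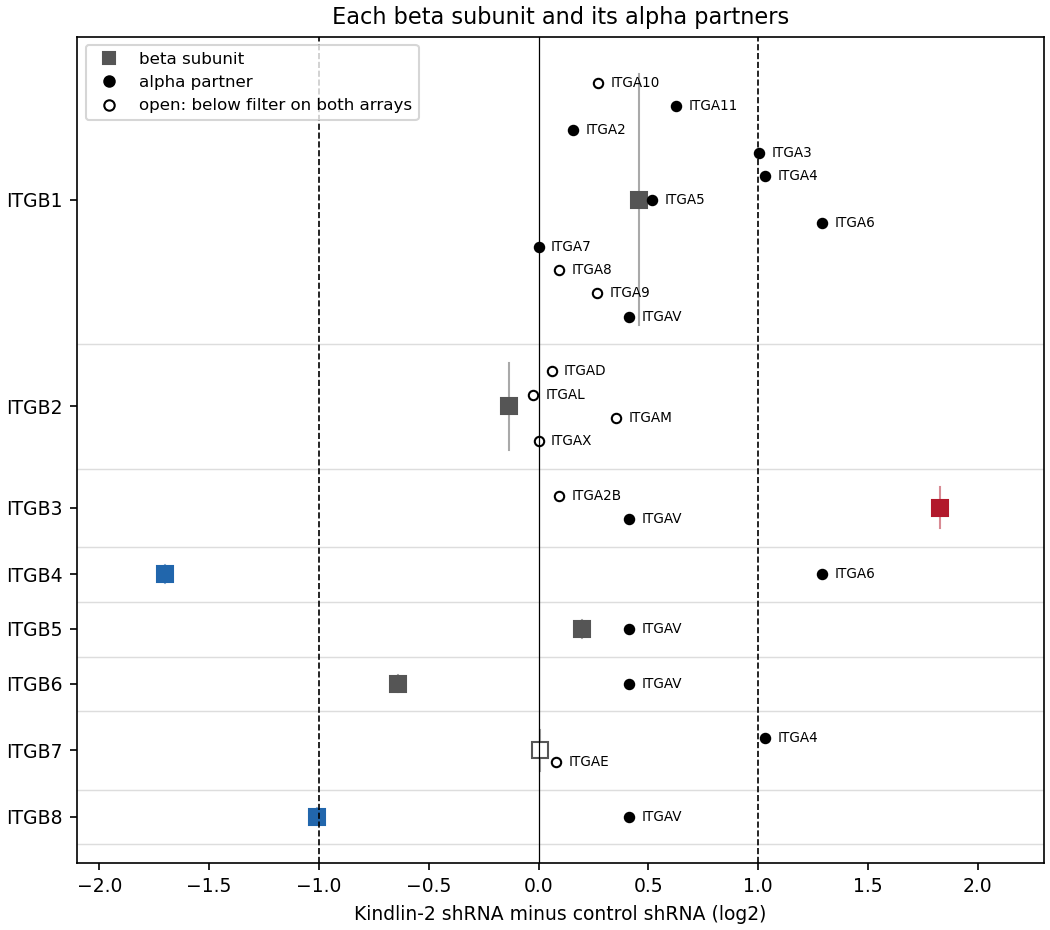
Differences between Kindlin-2 shRNA and control shRNA (log2, horizontal) of each beta subunit (squares, with a line spanning its row) and of each alpha partner it is known to pair with (circles). Open symbols mark genes too dim to pass the filter and dashed lines mark 2-fold. ITGB4, ITGB6 and ITGB8 lie left of 0 while their partners ITGA6 and ITGAV lie right of it.

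The sequence before a start site of transcription is shown for ITGB6 and ITGB8, the alpha-v partners that were lower together, and for ITGB1, which shares alpha-v and was higher. Promoter sequences came from RefSeq on build GRCh38.p14, in which 5 of the 8 members matched an entry (ITGB1, ITGB5, ITGB6, ITGB7 and ITGB8), and each window holds the 250 bases before a start site. Searched on both strands were TGANTCA, a motif of AP-1 factors, GGAATG, a motif of TEAD factors, and GGGCGG, the GC box, and their matches are in capitals, none of which overlap.
ITGB6, chr2:160200273-160200522, minus strand: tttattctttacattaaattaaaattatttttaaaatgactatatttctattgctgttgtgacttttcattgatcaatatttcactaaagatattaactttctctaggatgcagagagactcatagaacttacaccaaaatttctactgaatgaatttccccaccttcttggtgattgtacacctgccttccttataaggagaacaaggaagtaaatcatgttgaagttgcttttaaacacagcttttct
ITGB8, chr7:20330650-20330899, plus strand: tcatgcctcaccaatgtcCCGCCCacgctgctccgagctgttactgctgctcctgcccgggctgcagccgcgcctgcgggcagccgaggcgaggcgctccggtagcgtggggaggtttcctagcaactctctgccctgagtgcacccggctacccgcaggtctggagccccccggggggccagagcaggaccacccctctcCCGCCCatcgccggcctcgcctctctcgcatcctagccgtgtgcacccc
ITGB1, chr10:32958231-32958480, minus strand: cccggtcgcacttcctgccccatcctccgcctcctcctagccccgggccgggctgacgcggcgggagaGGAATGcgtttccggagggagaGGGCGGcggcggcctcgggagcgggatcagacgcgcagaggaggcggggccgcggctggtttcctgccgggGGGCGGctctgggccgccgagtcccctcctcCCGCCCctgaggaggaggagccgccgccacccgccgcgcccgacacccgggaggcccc
The window of ITGB6 is rich in A and T, with 30.0% G or C, and holds none of the 3 motifs. That of ITGB8 has 71.2% G or C and 2 GC boxes. It lies inside the annotated span of ITGB8 itself, and also within that of the gene named ITGB8-AS1. The window printed for ITGB1 has 78.4% G or C, 3 GC boxes and 1 TEAD motif. A second start site of ITGB1, inside the gene, has a window with 41.6% G or C and 0 matches to the 3 motifs. ITGB5 also shares alpha-v and was higher, and its windows are not printed. They have 75.2%, 56.4% and 52.8% G or C, with 3, 0 and 2 GC boxes and no TEAD or AP-1 motif. Over all 35116 promoter entries the median G or C content was 58.0%, and 42.6% held a GC box, 11.9% the TEAD motif and 6.57% the AP-1 motif. A match describes the letters and not a bound site, and a missing match says nothing of the factor.

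None of the 5 measured genes on each side of any beta subunit gene differed by 2-fold, whether or not it passed the filter. Around ITGB3 these 10 genes lay between -0.29 and 0.37, with MYL4 and EFCAB13 as its direct neighbours at 0.10 and 0.30. Around ITGB4 they lay between -0.89 and 0.26, and the direct neighbours SAP30BP and GALK1 were at 0.03 and -0.19. The lowest of the 10 was LLGL2, a cell polarity gene. Next to ITGB8 the metastasis-associated gene MACC1 was at -0.79 and the transporter ABCB5 at 0.13, on a chromosome with a median of -0.22. MACC1, at 6.00 in depleted cells and 6.79 in control cells, passed the filter through the control array alone. It could thus be counted only as below 0, and ABCB5 stayed below the filter. Around ITGB6 the 10 genes lay between -0.86 and 0.45. The neighbours of ITGB7 had a median of -0.47, and all 10 were farther from 0 than ITGB7 itself. These neighbours were named for their place, LLGL2 and MACC1 after their values were seen.

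**Figure D4:**
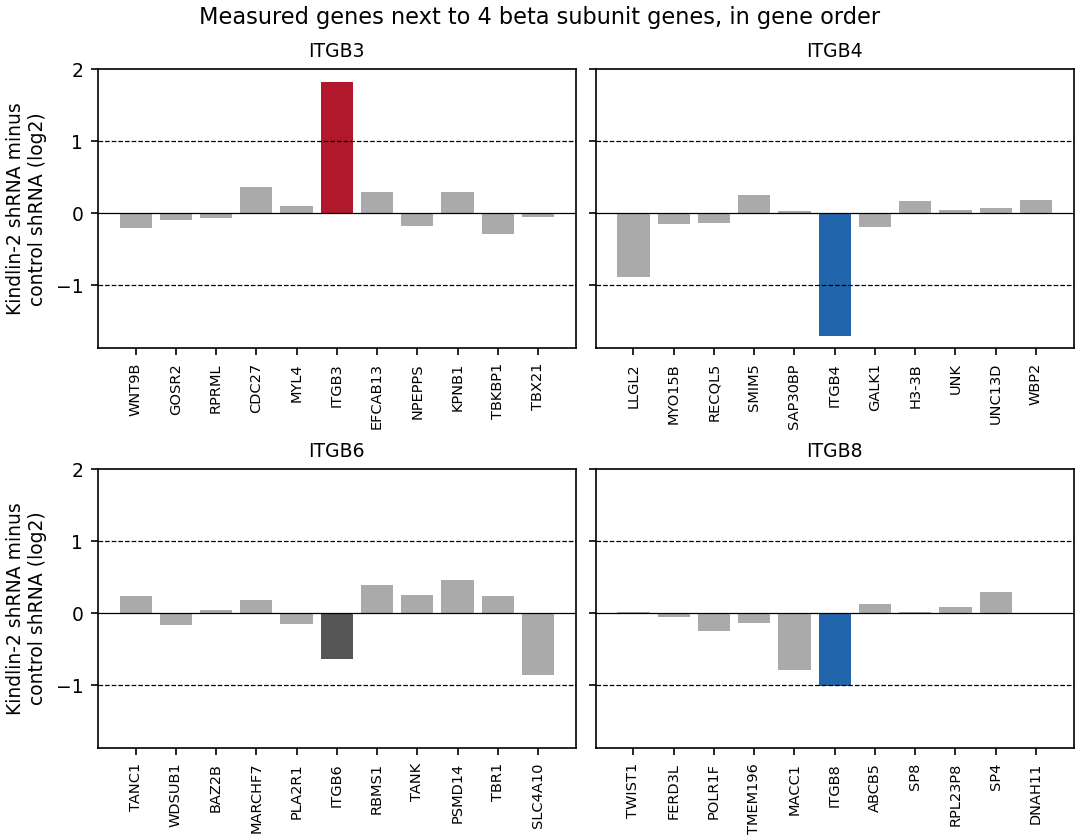
Differences between Kindlin-2 shRNA and control shRNA (log2, vertical) of ITGB3, ITGB4, ITGB6 and ITGB8 and of the 5 measured genes on each side, in gene order and not to distance, with 2-fold as dashed lines. In all 4 panels the neighbours (light grey) stay within 2-fold, and next to ITGB3 and ITGB4 no neighbour is as far from 0 as the integrin gene.

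Among proteins that bind beta tails, 3 tensins were lower in Kindlin-2-depleted cells beside FERMT2, and EPB41L3 was higher. Of 27 listed, 23 had a cluster of their own and 19 passed the filter, 7 above 0 and 12 below, with a median of -0.16. At least 2-fold lower were 3 of the 19, beside 1.26% of the genes kept, namely TNS1 (-1.20), FERMT2 itself and TNS3 (-1.08). FERMT2 is the gene the shRNA targets, so its place in these counts was set by the design. TNS3 lies on chromosome 7 like ITGB8, and with the chromosome median or its 50 nearest genes subtracted it differed by -0.86. That left 2 of the 19, TNS1 and the targeted FERMT2. TNS2 (-0.66, named after its value was seen) was at least 1.5-fold lower. It lies on chromosome 12, and with its 50 nearest genes subtracted it differed by -0.40, which is under 1.5-fold. TNS4 stayed below the filter, at 6.06 in depleted cells and 5.99 in control cells. The tensins bind the same tyrosine motifs and link them to actin. The only one at least 1.5-fold higher was EPB41L3, a membrane skeleton protein reported to bind the tail of beta-8. It had a log2 value of 8.99 in depleted cells and 6.12 in control cells, a difference of 2.87. The control value lay under the filter floor, where RMA compresses differences. EPB41L3 thus passed the filter through the Kindlin-2 shRNA array alone and could be counted only as above 0. The other kindlins, FERMT1 of epithelia (-0.58) and FERMT3 of blood cells (-0.15), were also below 0. FERMT1, at 6.03 in depleted cells and 6.62 in control cells, passed the filter through the control array alone.

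Ligands were grouped by the beta subunit that binds them. Of 17 RGD ligands of alpha-v and beta-3 integrins 11 passed the filter, with 7 above 0, 4 below and a median of 0.16. Tenascin-C (TNC) and fibrillin-1 (FBN1) were 4.07-fold and 3.66-fold higher in depleted cells. Vitronectin (VTN), the classical ligand of beta-3 and beta-5, had a log2 value of 6.71 in depleted cells and 7.91 in control cells, a difference of -1.20. EDIL3, a secreted RGD protein, differed by -0.62. Of 9 genes of latent TGF-beta and its carriers, the cargo of beta-6 and beta-8, 7 passed, with 5 above 0 and a median of 0.19. TGFB2 was 2.15-fold higher and the carrier LTBP3 differed by -0.68. Among 13 laminin and collagen ligands of beta-1 10 passed, 5 above 0 and 5 below, with a median of 0.02, and the laminin chain LAMC1 alone passed 1.5-fold, at 0.65. Of the cell surface ligands of beta-2 and beta-7, 8 passed, with a median of 0.06. JAM3 (2.19) and VCAM1 (0.75) were higher, and CDH1, the epithelial cadherin bound by alpha-E beta-7, was lower (-1.96). JAM3 was at 8.27 in depleted cells and 6.08 in control cells. It passed the filter through the Kindlin-2 shRNA array alone, so it could be counted only as above 0.

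**Figure D5:**
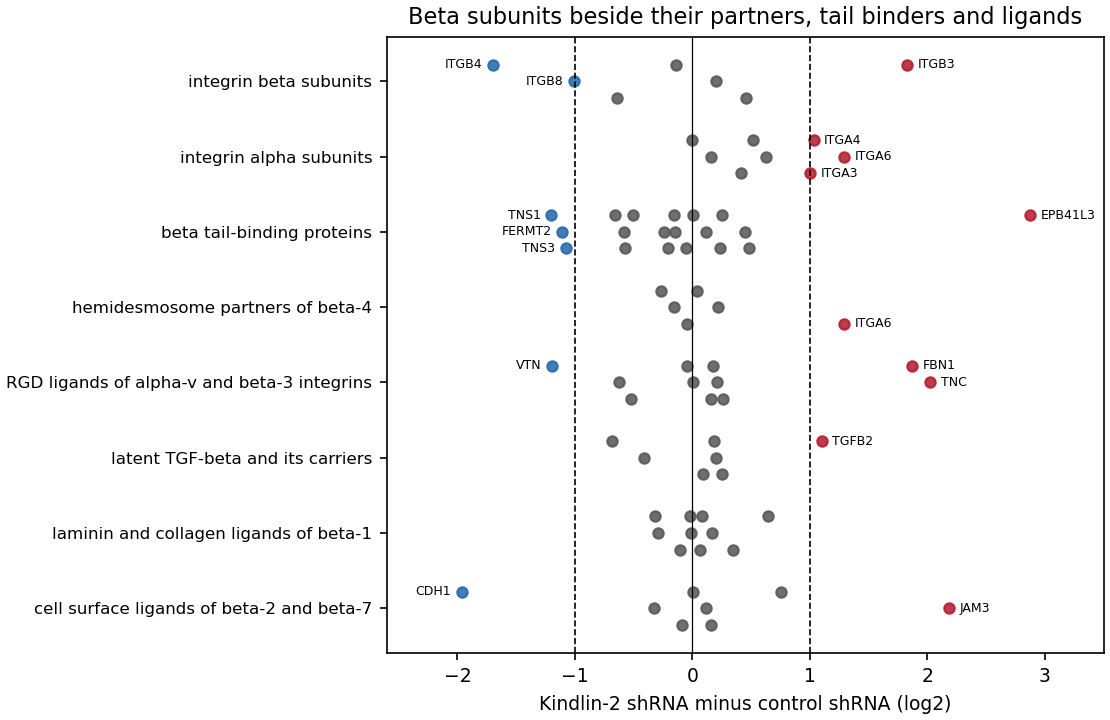
Differences between Kindlin-2 shRNA and control shRNA (log2, horizontal) of every gene that passed the filter in the beta subunit list and 7 lists of partners, tail binders and ligands, 1 point per gene, with names at 2-fold or more. Points of the beta subunits spread on both sides of 0, while those of the alpha subunits lie at or above 0.

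The genes with the difference most like that of a beta subunit were found by the absolute gap between log2 differences over the 2 arrays, which says only that the sizes are alike. Those nearest to ITGB3 were the crosslinking enzyme TGM2 (1.80), the pseudogene HSP90AA6P (1.78) and FBN1. For ITGB4 they were the pregnancy-associated protease PAPPA (-1.71), the Wnt receptor FZD3 (-1.67) and DENND2A (-1.66). For ITGB8 they were CREBL2 (-1.009), the sulfotransferase GAL3ST1 (-1.005) and RAB42 (-1.01). HSP90AA6P passed the filter through the Kindlin-2 shRNA array alone, and FZD3, DENND2A and RAB42 through the control array alone. Their differences thus rest on a dim value, where RMA compresses differences.

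Markers of renal epithelium were present on both arrays, with PAX8, a transcription factor used to identify renal tumours, at 11.29 in depleted cells and 11.43 in control cells. Of 7 such markers that passed the filter 6 were below 0, with a median of -0.45, where 46.4% of all genes kept were above 0. KRT8 (-0.54) and KRT18 (-0.44) lie on chromosome 12, which was lower as a whole, with a median of -0.21. With the median of the genes nearest to them on the chromosome subtracted, KRT8 differed by -0.29 and KRT18 by -0.19. Each of the 6 stayed below 0 when the median of its own neighbours was subtracted. The linear values of the 7 summed to 11762.5 in depleted cells and 15140.9 in control cells, with CDH16 (-0.83) and PAX2 (-0.66) lowest. CDH16, at 6.26 in depleted cells and 7.10 in control cells, passed the filter through the control array alone. It could thus be counted only as below 0. The 6 markers below 0 were lower together with ITGB4, ITGB6 and ITGB8, and their part in those differences was not tested. Of 6 endothelial markers 1 passed the filter, and their linear values summed to 339 in depleted cells and 341 in control cells. Of 6 fibroblast markers 4 passed, with sums of 457 in depleted cells and 494 in control cells, and PDGFRB (-0.77) was the only one at least 1.5-fold different. PDGFRB, at 6.31 in depleted cells and 7.08 in control cells, passed the filter through the control array alone. The defining endothelial marker PECAM1 was at 5.003 in depleted cells and 4.98 in control cells, below the filter. In RNA from a whole culture, fewer cells that express a gene and less RNA per cell cannot be told apart.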

How the data were processed

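Per the submitters' processing notes, the authors made the deposited log2 values with RMA in Affymetrix Expression Console 1.4.1, which corrects background, aligns the distributions of arrays and summarises probes per transcript cluster. The notes do not state which arrays were normalised together. RMA compresses differences between dim values. The table holds 33297 clusters on 2 arrays, with medians of 6.53 (Kindlin-2 shRNA) and 6.51 (control), and no detection calls. The number of arrays limits the precision.

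Groups came from the shRNA label. Symbols came from GEO's platform annotation, updated through Entrez IDs to RefSeq (GRCh38.p14), which matched 19429 of 19460 single-symbol clusters. A further 1754 clusters with more than 1 symbol and 12083 without any were not used. For 769 genes with several clusters, the brightest was used. Differences and fold counts were computed with Python 3.11.15, pandas 2.3.3 and statsmodels 0.14.6 (loess), and the fold count was tested on simulated data. With 1 array per group no test was run.

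The members and gene lists were chosen with earlier results of these data known. Named were all members, FERMT2, their alpha partners, ITGBL1, cell type markers, up to 3 genes per direction and list that passed the filter and differed by at least 1.5-fold, and the 3 genes nearest in difference to each member past 2-fold. The other kindlins and the genes next to a member were named outside this rule. Alternatives covered the fold threshold, the filter, normalisation, cluster choice and regional shifts.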

Additional observations from a re-analysis of the deposited data

How the results depend on the processing

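No paired analysis was possible because each group held 1 array. Repeating the quantile normalisation, a loess correction, centring each array on its median, averaging the clusters of a gene, or subtracting the median of the chromosome or of the 50 nearest genes left the number of members at least 2-fold higher at 1. The number at least 2-fold lower was 2, but 1 with the chromosome median subtracted, 1 with the 50 nearest genes subtracted and 1 at a 3-fold threshold. In each of these ITGB8 no longer passed. Over these settings ITGB3 ranged between 1.80 and 1.93, ITGB4 between -1.72 and -1.70, ITGB8 between -1.05 and -0.79, ITGB6 between -0.69 and -0.64 and ITGB1 between 0.38 and 0.46, while ITGB7 ranged between -0.03 and 0.26. The counts of alpha subunits were recomputed in settings chosen after seeing the data, and with the chromosome median subtracted 2 passed 2-fold. Other filters on dim genes did not change the counts. Dim values and single arrays limit every fold.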

Other observations

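Genes that carry the name of beta integrins without being subunits had small differences. ITGBL1, a secreted protein related to the beta chains, had a log2 value of 6.69 in Kindlin-2-depleted cells and 7.05 in control cells, a difference of -0.36. ITGB3BP, a centromere protein first found through the beta-3 tail, had 7.50 in depleted cells and 7.21 in control cells, a difference of 0.29, against 1.83 for ITGB3.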
